A study of Mus musculus with 16 samples.

Results

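The YTHDF2 RNA immunoprecipitation (RIP) of MC38 cells, a mouse tumour cell line, gave a deposited list of 23372 peaks in 6754 genes, and 2021 of these peaks (8.65%), in 981 genes (14.52%), lay in genes that carried no m6A peak. The members were chosen by gene identifier: a RIP peak was kept when its Ensembl gene occurred in neither of the 2 deposited m6A peak lists, that of WT cells (19236 peaks in 9427 genes) and that of Ythdf2-KO cells (17428 peaks in 8686 genes). The peak lists chose the members, so the absence of an m6A peak and the presence of a RIP peak are given as a description and support nothing here. A gene without a listed m6A peak is not a gene shown to lack m6A.

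All samples were MC38 cells, and the labels gave no treatment. The genotype labels were WT for the m6A immunoprecipitation and input libraries whose titles carry gNC (n = 3 each), Ythdf2-KO for those whose titles carry gY2 (n = 3 each), and WT for the RIP and RIP input libraries (n = 2 each). Polyadenylated RNA cut to fragments of about 100 nucleotides was used for the m6A libraries, and whole-cell lysate was used for the RIP. The labels do not say how the knockout was made or whether each genotype was 1 clone. The groups shared the cell line, and the single peak list per group carried no replicate error.

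m6A, N6-methyladenosine, is a methyl mark that the METTL3-METTL14 enzyme places on adenosines of mRNA, mostly within the DRACH sequence and often near stop codons and in 3′ untranslated regions (UTRs). YTHDF2 is a cytoplasmic reader that holds the methylated adenosine in its YTH domain and recruits the CCR4-NOT deadenylase, which shortens the poly(A) tail and leads to decay of the mRNA. RIP recovers RNA held by the protein directly or through other proteins, so a RIP peak is not a map of a binding site to the base.

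Some of the member peaks are shown as sequence, in mm10 coordinates, 5′ to 3′ along the gene's strand and with introns left out. Capitals mark matches to DRACH, which is A, G or T, then A or G, then A, then C, then A, C or T. The peaks searched were of at most 300 bases, lay wholly in coding sequence and were held whole by a single transcript. Only genes with a plain symbol (no Gm number, Rik or accession name) were searched, and part of the genome was left out. Ranks by score hold for the searched peaks only. The first 3 are the searched peaks with the lowest deposited scores. They are Fam91a1 (chr15:58421861-58424854, plus strand, 4 exonic blocks, score 7.9e-56), Lamp1 (chr8:13167211-13167818, plus strand, 2 blocks, score 3.2e-34) and Tfg (chr16:56694400-56701079, minus strand, 3 blocks, score 7.9e-24). The next is the lowest-scored such peak with no DRACH match, in Ugcg (chr4:59217107-59218537, plus strand, score 2.1e-08). The last is the lowest-scored such peak of a gene whose input level was called higher in the libraries labelled Ythdf2-KO, Ptprj (chr2:90453409-90458190, minus strand, score 6.3e-12).
Fam91a1: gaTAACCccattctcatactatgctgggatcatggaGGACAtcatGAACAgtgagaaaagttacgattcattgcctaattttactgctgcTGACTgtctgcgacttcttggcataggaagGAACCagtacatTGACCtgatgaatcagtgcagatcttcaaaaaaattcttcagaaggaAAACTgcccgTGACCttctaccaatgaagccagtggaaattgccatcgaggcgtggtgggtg
Lamp1: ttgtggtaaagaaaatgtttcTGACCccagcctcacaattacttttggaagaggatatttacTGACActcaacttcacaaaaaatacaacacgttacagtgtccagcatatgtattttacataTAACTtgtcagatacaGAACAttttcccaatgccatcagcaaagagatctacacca
Tfg: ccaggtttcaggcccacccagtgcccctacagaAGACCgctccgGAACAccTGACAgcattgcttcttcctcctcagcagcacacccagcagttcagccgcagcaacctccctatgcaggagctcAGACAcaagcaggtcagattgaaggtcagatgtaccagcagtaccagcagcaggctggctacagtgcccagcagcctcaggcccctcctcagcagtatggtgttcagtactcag
Ugcg: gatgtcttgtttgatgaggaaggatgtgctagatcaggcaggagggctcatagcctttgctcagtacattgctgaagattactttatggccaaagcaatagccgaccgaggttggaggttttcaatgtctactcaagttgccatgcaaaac
Ptprj: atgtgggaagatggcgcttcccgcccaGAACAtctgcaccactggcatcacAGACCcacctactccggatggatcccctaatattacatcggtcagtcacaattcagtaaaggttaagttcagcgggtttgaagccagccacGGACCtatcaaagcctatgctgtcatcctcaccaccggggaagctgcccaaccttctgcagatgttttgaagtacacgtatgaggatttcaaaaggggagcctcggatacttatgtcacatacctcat

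The Fam91a1 peak held 8 DRACH matches in 241 bases, the Lamp1 and Tfg peaks 4 each in 179 and 239 bases, and the Ptprj peak 3 in 270. The Ugcg peak, on the mRNA of ceramide glucosyltransferase, held 0 in 151 bases. The sequences differed in base composition too, from 36.3% G or C in Lamp1, a lysosomal membrane glycoprotein gene, to 58.6% in Tfg.

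A further pair of members lay on annotated small RNA genes that sit inside annotated exons of a longer noncoding RNA. Here and below, exons were pooled over all annotated isoforms of a gene, those with a retained intron included. A base counted as exonic may therefore be intronic in other isoforms. Gm27517 (chr11:3645286-3645521, minus strand, score 1.3e-51) lies in Tug1, a nuclear and cytoplasmic long noncoding RNA, and Snord47 (chr1:161038082-161038158, plus strand, score 0.00013) lies in Gas5, which hosts box C/D small nucleolar RNAs.
Gm27517: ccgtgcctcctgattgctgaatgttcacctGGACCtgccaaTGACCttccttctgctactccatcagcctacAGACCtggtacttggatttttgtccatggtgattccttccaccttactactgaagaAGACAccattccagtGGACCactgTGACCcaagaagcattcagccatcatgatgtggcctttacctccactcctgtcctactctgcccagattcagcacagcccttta
Snord47: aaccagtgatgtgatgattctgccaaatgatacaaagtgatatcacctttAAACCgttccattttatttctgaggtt

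Each of these 2 peaks covered the annotated small RNA gene from its first to its last base. Of the 13 member peaks under small RNA genes, 11 equalled the whole annotated gene, and 11 lay wholly inside exons of another gene. The other gene had the higher count in the WT inputs in 12 of the 13, the exception being Mir719, whose host Nupl1 was at 0 CPM. Gas5 stood at 579 CPM (counts scaled to library size) in WT against 0.0970 for Snord47, and Tug1 at 91.7. The libraries were of polyadenylated RNA, and reads on shared exons may be counted for the longer gene. These counts therefore need not give the level of the small RNAs themselves, which was not tested.

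Among the 13 were 4 miRNA genes with a Mir symbol, all 4 matched in the RefSeq miRNA table (GRCm38.p6). Their mature sequences are given because the peaks covered them whole, with the seed (bases 2 to 8) in capitals.
mmu-miR-671-5p: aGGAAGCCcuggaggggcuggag
mmu-miR-671-3p: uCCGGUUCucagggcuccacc
mmu-miR-6363: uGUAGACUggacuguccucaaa
mmu-miR-1892: aUUUGGGGacgggagggaggau
mmu-miR-719: aUCUCGGCuacagaaaaauguu

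No 2 of the 5 mature sequences shared a seed, and each seed occurred 1 time in the RefSeq table. The peaks were 98 bases (Mir671), 114 bases (Mir6363), 80 bases (Mir1892) and 83 bases (Mir719) wide, while mature miRNAs are about as long as the sequences above. Mir6363 had 0 counts in all 6 input libraries, which allows up to 0.059 to 0.066 CPM (3 counts per library, for counting error only), and its peak lay in exons of Dubr on the other strand, a long noncoding RNA at 40.0 CPM in WT. The Mir671 peak was overlapped over all 98 bases by m6A peaks listed under other genes, and the Mir6363 peak over all 114 bases by an m6A peak of Dubr.

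Before the results, 3 facts on the input libraries matter. Totals ran from 45441281 to 50959555 counts. On the first principal component (51.4% of the variance of log CPM) the 3 WT libraries lay between -39.17 and -38.61, KO replicates 2 and 3 at 64.05 and 63.24, and KO replicate 1 at -10.41, so this replicate stood apart from its group. Ythdf2 itself was counted at 55.6, 68.6 and 59.7 CPM in WT and at 67.9, 59.8 and 61.5 CPM in the libraries labelled Ythdf2-KO, so its whole-gene count did not separate the groups, and it checks no edit smaller than the gene. Of 6 epithelial markers none passed the count filter, Krt18 and Epcam were at 0 in all 6 libraries, and their summed level ran from 0.196 to 0.254 CPM in WT and 0.136 to 0.467 CPM in the libraries labelled Ythdf2-KO. The summed level of 6 mesenchymal markers was 2231 to 2744 CPM and 1966 to 2080 CPM, that of 7 leukocyte markers 12.2 to 14.1 CPM and 6.90 to 10.5 CPM, and that of 3 endothelial markers 0.978 to 1.44 CPM and 1.32 to 2.68 CPM, in the same order. The part of these levels in the results below was not tested.

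The RIP peaks of genes without m6A were fewer per gene, narrower and of higher deposited score (less extreme, where the score is read as a p-value) than those of the 5773 bound genes with m6A. Of the 981 genes, 585 (59.6%) had a single RIP peak, against 1484 of 5773 (25.7%), and 90 had 5 or more, against 1721. The median peak covered 179 exonic bases (quartiles 91.0 and 270, range 56 to 4615), against 241 bases (150 and 510, 58 to 18253), and the median total per gene was 240 bases against 1113. The median score was 1.7e-06 against 1.1e-08. Base composition was near equal, with a median of 46.4% G or C against 46.7%.

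The rule's edge is sharp, and 417 of the 5773 bound genes with m6A had a single m6A peak over both lists. Those just outside the rule, whose only m6A peak had the highest scores, were Carmil1 (score 0.00012, 91 bases, KO list), Tle4 (6.9e-05, 61 bases, WT list), Psph (6.3e-05, 61 bases, WT list) and Tbc1d23 (6e-05, 61 bases, KO list). The scores of the members themselves reached 0.003.

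Input abundance separated the classes. The median bound gene without m6A stood at 7.53 CPM in WT (quartiles 0.741 and 32.3), the median bound gene with m6A at 38.3 CPM (17.9 and 73.8), and the median of all genes tested at 14.5 CPM. Per kilobase of exon the medians were 1.99, 6.66 and 4.11 CPM. Of the 981 genes, 280 were under 1 CPM in WT, 43 had 0 counts in all 6 input libraries, and 73 were at 100 CPM or more.

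Read the other way, the share of bound genes that lacked an m6A peak fell with the input level. It was 66.0% below 1 CPM (280 of 424 genes, exact 95% interval 61.3 to 70.5), 37.4% from 1 to 5 CPM, 14.6% from 5 to 10 CPM and 13.4% from 10 to 20 CPM. Above that it stayed low: 8.77% from 20 to 50 CPM, 6.11% from 50 to 100 CPM, 7.59% from 100 to 200 CPM and 6.57% at 200 CPM or more (18 of 274, 3.94 to 10.2). The last 3 intervals overlap one another, so no further fall was seen beyond counting error. Among coding genes at 10 CPM or more, the share was also higher for short transcripts, at 19.5% below 1000 bases (15 of 77, 11.3 to 30.1) and 6.14% at 5000 bases or more (96 of 1564, 5.00 to 7.44). All intervals on shares are Clopper-Pearson intervals for counting error only, and peaks or genes are not replicates of a condition.

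**Figure D1:**
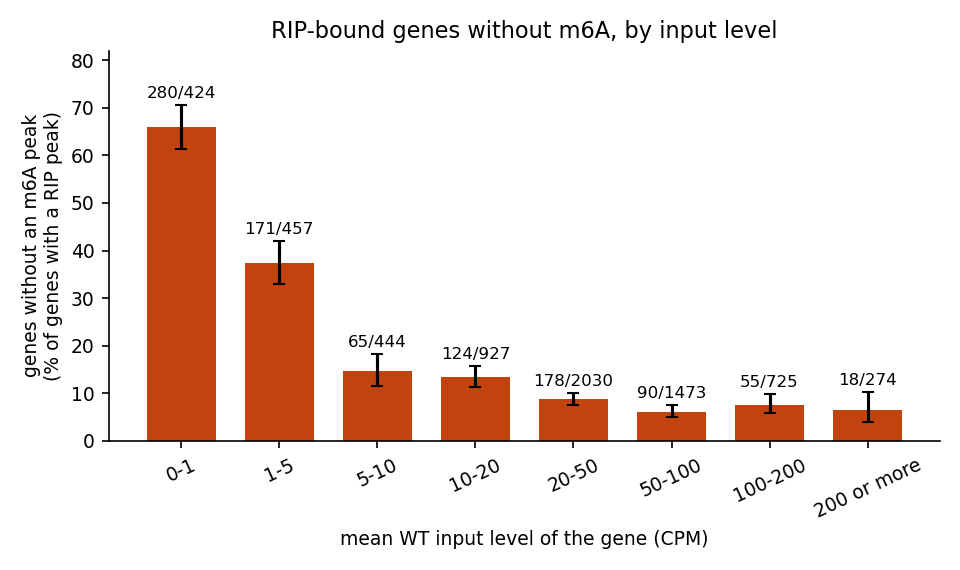
Bars show the share of genes with a RIP peak that had no m6A peak in either list (vertical axis, %), by mean WT input level in CPM (horizontal axis), with exact 95% intervals and gene counts. The share falls from 66.0% below 1 CPM to 6.11% at 50 to 100 CPM.

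Most of the 981 genes were protein-coding (680, 69.3%), but the noncoding classes took a larger share than among bound genes with m6A, where 94.9% were protein-coding. Antisense genes, which run against another gene, made up 113 of 981 (11.5%, 9.59 to 13.7) against 105 of 5773 (1.82%, 1.49 to 2.20). Unproven gene models of the annotation class TEC (53 genes), pseudogene (43), processed transcript (37), lincRNA (30) and small RNA (13) followed. The coding members stood at a median of 19.2 CPM in WT and the antisense members at 0.138 CPM. In bulk RNA, fewer cells with a transcript and less of it in each cell cannot be told apart.

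Many of the member peaks lay where 2 genes overlap. Of the 2021 peaks, 499 (24.7%, 22.8 to 26.6) touched an exon of another gene by at least 1 base, against 8.92% (8.54 to 9.31) of the 21351 peaks of genes with m6A, although the latter peaks were wider. On the same strand the shares were 8.07% and 2.67%, and on the opposite strand 17.5% and 6.53%. For antisense members it was 123 of 144 peaks (85.4%), for small RNA members 13 of 13 and for coding members 258 of 1637 (15.8%). A RIP peak of another gene was touched by 22.2% of member peaks against 6.83%, and 392 member peaks (19.4%) touched a RIP peak that was listed under a gene with m6A. Where the other gene's level was also known (360 pairs), that gene was the more abundant per kilobase in 297 (82.5%), and at least 10 times so in 228. The medians were 0.161 CPM per kilobase for the member and 5.34 for its partner. The sources used here give no strand setting for the counting or the peak calling, so reads of such pairs may be shared, and values of overlapping members are uncertain.

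The m6A peaks of those other genes seldom coincided with the member peaks, but the rule itself may lower this share. A peak on shared exons can be listed under each of the genes, and a gene listed with m6A is no member. Member peaks were also narrower, so no conclusion is drawn from the contrast with genes with m6A. Only 9 of 2021 member peaks (0.445%, 0.204 to 0.844) touched an m6A peak of another gene on the same strand, against 1.06% (0.930 to 1.21) of the peaks of genes with m6A, and 31 (1.53%, 1.04 to 2.17) did so on either strand, against 3.16% (2.93 to 3.40). The widest contact was in Pmch, the precursor gene of melanin-concentrating hormone, whose 450-base RIP peak (chr10:88091371-88092375, plus strand, score 4e-31) met an m6A peak of Parpbp, on the other strand, over 161 bases. Pmch itself was at 0.106, 0 and 0 CPM in WT and 0.155, 0.163 and 0.106 CPM in the libraries labelled Ythdf2-KO. Next among plain symbols were Lime1, a membrane adaptor gene, with 158 bases under an m6A peak of Zgpat on its own strand, and Pkd1l3, a polycystin-family gene, with 117 bases under one of Ist1 on the other strand. The antisense gene Dhrs13os met an m6A peak of Phf12 over 79 bases of its 451-base RIP peak.

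**Figure D2:**
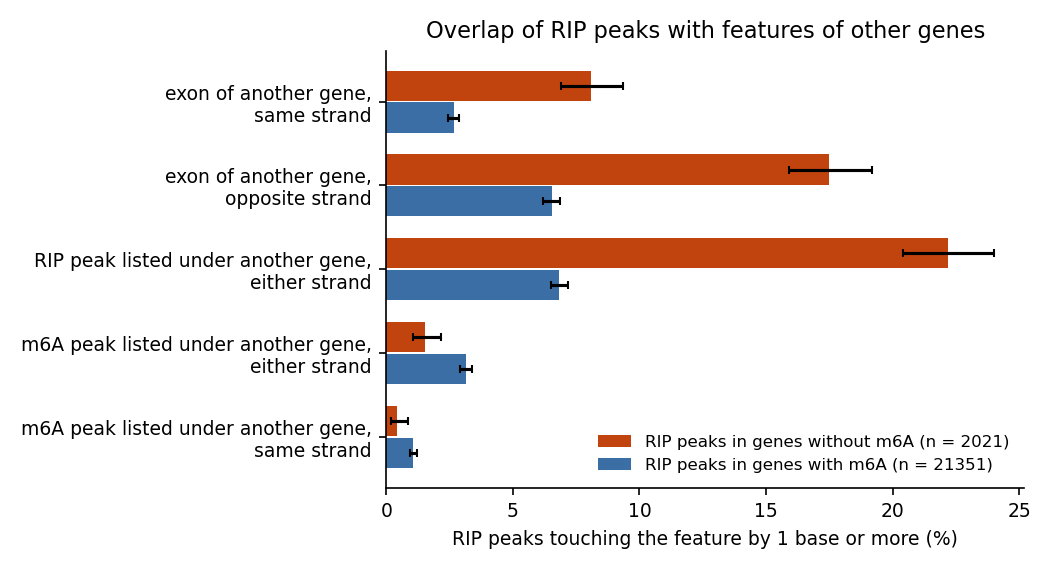
Bars show the share of RIP peaks (horizontal axis, %) that touch a feature of another gene by 1 base or more, for peaks in genes without m6A and with m6A, with exact 95% intervals. Exons and RIP peaks of other genes are touched more often by the peaks in genes without m6A (22.2% against 6.83% for RIP peaks). The m6A peaks of other genes are touched less often, a share that the rule itself may lower.

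When every gene with such contact was set aside, 614 genes with 1394 peaks were left, of which 516 were coding, at a median of 18.3 CPM. These carried RIP peaks, no m6A peak, and no contact with another gene's exon.

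The protocadherin gamma cluster on chromosome 18 was a marked case of shared exons. Its genes splice different first exons to the same last exons, and 18 of them gave 56 rows with 30 distinct sets of blocks, while 4 other bound genes of the cluster had an m6A peak. The same block set was listed under 6 genes in one case and under 5 in another. Counting each block set once left 1995 of the 2021 peaks. Only identical sets were merged, so near-identical peaks remained. The Ugt1a genes on chromosome 1 were such a case, each listing nearly the same peak of 4 blocks. The position shares, the motif densities and their intervals thus count some stretches repeatedly. Chromosome 18 held 124 of the members, 17.51% of its 708 RIP peaks.

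Fn1 had the lowest scores of all members. The gene, which encodes the matrix protein fibronectin, had 5 RIP peaks covering 9113 exonic bases, with all 5 midpoints in coding sequence, the widest 4615 bases in 27 blocks, with scores listed as 0 in 2 of them. It was counted at 2844, 2255 and 2415 CPM in WT, and no m6A peak was listed under it. Next by score, among genes with a plain symbol (no Gm number, Rik or accession name), were Cav2 (caveolin, 1e-103), Capza2 (actin capping, 1e-101), Sec24d (COPII vesicle coat, 7.9e-71), Itfg1 (3.2e-62), Gng5 (G protein gamma subunit, 3.2e-58), Lypla1 (acyl-protein thioesterase, 1.3e-57) and Fam91a1 (7.9e-56). Outside that naming rule, and named after their values were seen, A930005N03Rik (1e-138), Gm15725 (1e-111), Gm26749 (1e-106) and 4931440P22Rik (1e-88) scored below Sec24d and each shared bases with another gene's exon, and Gm10123 (2.5e-57) scored below Fam91a1. Cav2, Sec24d and Gng5 had the strongest peak in the 3′ UTR, Itfg1 and Fam91a1 in the coding sequence. Lypla1 shared 513 of its 2663 peak bases with exons of Gm37988.

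The genes with most peaks were long. Htt, the huntingtin gene, had 21 peaks covering 4608 bases, 15 of them in coding sequence, 4 in the 3′ UTR and 1 in the 5′ UTR, with widths of 61 to 601 bases. Lpp, a focal adhesion LIM-domain gene, had 15 covering 10003 bases, 14 of them in its 3′ UTR. Dync2h1, the heavy chain of the dynein of cilia, had 14, of which 13 were in coding sequence, and Lrrk2, a protein kinase gene, had 12, all in coding sequence. Rfx3, a transcription factor of ciliated cells, had 9 of 12 in the 3′ UTR, Pdpk1, the kinase that activates AKT, 8 of 10, and Rasa2, a Ras GTPase-activating gene, 6 of 12. Zfp521, a zinc finger gene, had 10, with 9 in coding sequence at only 4.10 ± 0.283 CPM (SD, n = 3) in WT. Peaks of 1 gene are not independent of each other.

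By WT input level, the member after Fn1 was Lamp1 at 863, 943 and 869 CPM in WT, with a single peak of 179 bases. H3f3b, a replacement histone H3 gene, stood at 750, 755 and 810 CPM with 1 peak of 150 bases, and Pdia6, a protein disulfide isomerase of the endoplasmic reticulum, at 693, 626 and 610 CPM with 5 peaks. Cltc (clathrin heavy chain), Srsf3 (splicing factor), Prpf8 (spliceosome core) and Ssr3 (translocon-associated protein) stood at 589 ± 59.3, 315 ± 28.6, 286 ± 11.5 and 284 ± 17.2 CPM (SD, n = 3). Prpf8 had 7 peaks over 4709 bases, all in coding sequence, and Ssr3 and Srsf3 had 1 each.

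Position on the mRNA was taken at the peak midpoint on the transcript with the longest coding sequence, for 1533 member peaks. The 3′ UTR held 47.9% of them (45.4 to 50.4), the coding sequence 49.9% (47.4 to 52.4) and the 5′ UTR 2.22% (1.54 to 3.09). An even spread of the same number over the same transcripts would give 41.0%, 52.6% and 6.39%. The peaks of genes with m6A were at 40.4% (39.7 to 41.1), 57.0% (56.3 to 57.7) and 2.59% (2.36 to 2.82), with an even spread of 40.8%, 53.0% and 6.29%. The member peaks were thus more often in the 3′ UTR than both their own even spread and the peaks of genes with m6A, and rarer in the 5′ UTR than an even spread, as were those of genes with m6A. Within 200 bases of the stop codon lay 15.9% (14.1 to 17.8) of member midpoints, where an even spread gives 11.9%, and 10.7% (10.3 to 11.2) of midpoints in genes with m6A, where it gives 9.67%. Isoforms with a retained intron were the only ones to hold the whole peak for 3.85% of the 1637 peaks of coding members (2.97 to 4.90), against 6.75% (6.41 to 7.10). Cxcl1, a neutrophil chemokine gene, was such a case, with a single 418-base peak (score 6.2e-10); it was named after its value was seen.

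**Figure D3:**
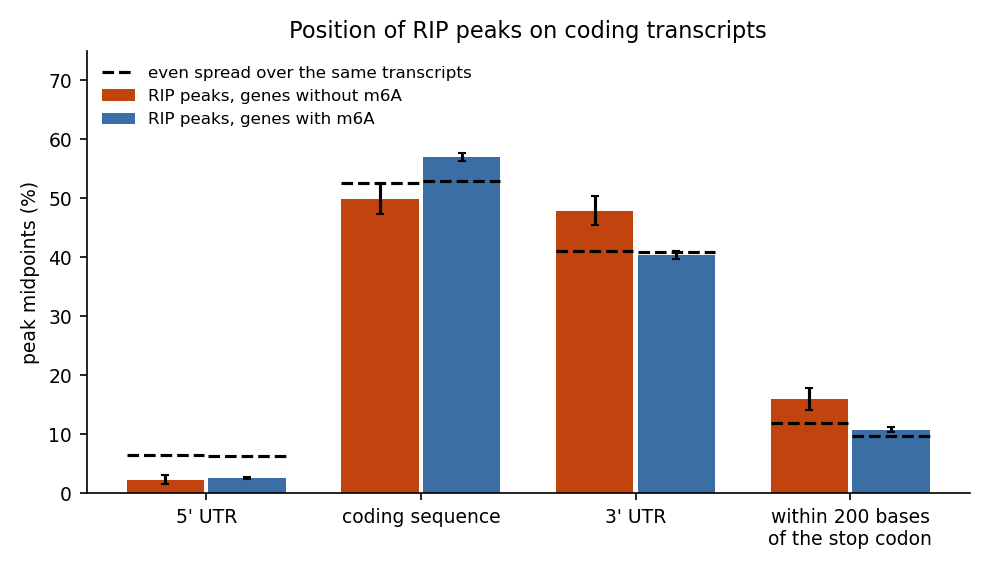
Bars show the share of RIP peak midpoints (vertical axis, %) by region of the coding transcript (horizontal axis), with exact 95% intervals; dashed lines give an even spread over the same transcripts, and the window around the stop codon overlaps the other regions. Peaks of genes without m6A reach 47.9% in the 3′ UTR, above the dashed line at 41.0%.

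DRACH, the sequence context of m6A, was about as frequent in the member peaks as in the rest of their transcripts. There were 20.7 matches per kilobase (20.3 to 21.1) in 412317 bases of 1844 peaks, against 20.1 in the rest, a ratio of 1.03. The same letters read backwards, a control with equal base composition, were at 25.6 against 23.9, a ratio of 1.07. In genes with m6A the ratios were 1.10 and 1.13. GGACH, the narrower motif that starts with GGAC and ends in A, C or T, was at 3.24 per kilobase in member peaks (3.06 to 3.41) and 3.58 in the rest (ratio 0.905), and at 3.39 and 3.40 in genes with m6A (0.996). At least 1 DRACH match lay in 91.1% of member peaks, and in 94.3% of 151-base stretches cut from the rest of their transcripts. In 151-base windows around the middle of the peak, for the 1005 peaks wide enough, the share was 96.4%. The motif was searched on the transcript strand only. A match is not a methylated site.

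The gene lists that follow hold the other genes of the pathways, whatever their values. Of 82 cytosolic ribosomal protein genes 1 was bound, of 37 mitochondrially encoded genes 0, of 67 replication-dependent histone genes 1 and of 9 polymerase III and related RNA genes 0, and none of the bound ones was a member. None of the 17 glycolysis genes was a member either (2 bound). Among 396 Zfp zinc finger genes, 265 were bound and 13 were members, where 14.52% of all bound genes were members. Of 96 nuclear respiratory chain genes, 6 were bound and 2 were members, Cox6c (cytochrome c oxidase) and Sdha (succinate dehydrogenase). The only Cox6c peak had its midpoint off the coding transcript, and 250 of its 271 bases lay in exons of Vps13b. Of 27 genes for partners of YTHDF2 in decay 12 were bound and 1 was a member, Pan2, the deadenylase. It had 4 peaks over 2188 bases, with midpoints in coding sequence. The strongest, of 1228 bases, was held whole by a retained-intron isoform and by no protein-coding one. The 45 collagen genes gave 20 bound and 3 members (Col5a3, Col11a1, Col6a4), and the 21 small nucleolar RNA host genes 4 bound and 2 members (Snhg1, Snhg5). The 61-base peak of Col6a4 lay wholly in exons of Gm47575, and 369 of the 1622 peak bases of Snhg1 lay in exons of other genes. From 32 type I interferon-stimulated genes (18 bound), 32 cell cycle genes (12 bound) and 40 proteasome genes (4 bound), 1 each was a member: Oas2, Mcm4 and Psmb6. These counts are a description of lists chosen with results known.

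Input levels were then compared between the libraries labelled Ythdf2-KO and WT (n = 3 each). In such levels, direct and indirect effects of the reader cannot be told apart. The rule used the peak lists and not these counts. Membership and counts are still not independent, because the share of bound genes without an m6A peak fell with the level in the WT inputs. The sources used here do not say whether these inputs also served the peak calling. In the quasi-likelihood test of edgeR (Benjamini-Hochberg adjusted p below 0.05), 20 members were higher and 22 lower in the libraries labelled Ythdf2-KO, of 822 tested (5.11%); at an unadjusted p under 0.05 the counts were 128 (15.6%) and 117 (14.2%), against a background of 16.9% higher and 12.6% lower. The background was 4.54% of 18969 genes called, 2.99% higher and 1.54% lower. With both directions together, the members' share was near the background. By direction 2.43% of members were higher and 2.68% lower, so the share called lower was above its background of 1.54%. That difference was not tested. The median member log2 fold change was -0.03, where that of all genes tested was -0.01. Bound genes with m6A had a median of 0.09 and 303 higher and 83 lower calls of 5681 (6.79%). Above a log2 fold change of 0 were 386 of 822 members and 3547 of 5681 bound genes with m6A.

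The same values were taken by abundance. From 10 to 50 CPM in WT, 165 of 302 members (54.6%) and 1708 of 2655 bound genes with m6A (64.3%) were above 0, with medians of 0.04 and 0.12 with 2.98% and 6.33% called higher, and with 2.98% and 1.47% called lower. At 50 CPM or more it was 88 of 163 (54.0%) and 1457 of 2309 (63.1%), with medians of 0.03 and 0.07 and 1.84% and 4.46% called higher and 3.68% and 1.17% called lower. Below 10 CPM it was 133 of 357 (37.3%) and 382 of 717 (53.3%), with medians of -0.16 and 0.05, 2.24% and 4.46% called higher and 1.96% and 2.37% called lower. The difference between the lists was not tested.

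**Figure D4:**
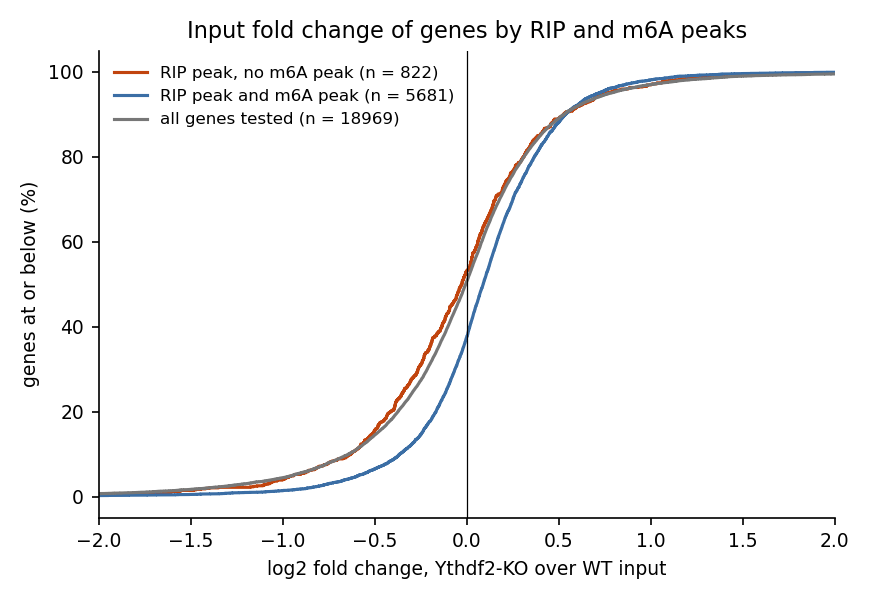
Lines show the cumulative share of genes (vertical axis, %) by log2 fold change of input level, libraries labelled Ythdf2-KO over WT (horizontal axis, shown from -2 to 2). The line of the 822 members crosses 0 near that of all 18969 genes tested, and the line of the 5681 bound genes with m6A lies to the right.

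The calls depended on single libraries. Without KO replicate 1, 156 members were higher and 186 lower of 834, against a background of 35.4% of all genes called (19.3% higher and 16.1% lower). Without any one of the other 5 libraries (WT replicate 1, 2 or 3, KO replicate 2 or 3) there were 0 to 2 higher and 0 to 6 lower in edgeR by adjusted p, against 0 to 0.476% of all genes called. At an unadjusted p under 0.05 these fits gave 73 to 119 members higher and 66 to 103 lower of 829 to 840, and 2036 to 2830 of all genes higher and 1397 to 2266 lower of 19469 to 19733. With DESeq2 there were 87 higher and 81 lower, against a background of 18.9% (11.8% higher and 7.10% lower). The values of the 3 WT and the 3 libraries labelled Ythdf2-KO did not overlap in 263 of the 822 members (32.0%), where the background was 33.8% of all genes. All 42 called members were also called without KO replicate 1 and by DESeq2, but only 1 with the replicate number as a block and only 8 in 2 or more of the 6 fits that left out a library. In 34 of the 42 KO replicate 1 lay between the WT libraries and the other KO replicates, a share not taken over all genes. Setting aside genes with contact to another gene's exon left 18 higher and 17 lower of 611.

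Among the 20 members called higher, 9 rose at least 2-fold, and no such share was taken over all genes. Plat, tissue plasminogen activator, was at 12.3, 10.8 and 10.7 CPM in WT and 20.7, 69.6 and 67.0 CPM in the libraries labelled Ythdf2-KO. The groups did not overlap, and KO replicate 1 was nearest to WT (log2 fold change 2.21 ± 0.42 SE, edgeR adjusted p = 0.0380). Ptprj, a receptor-type tyrosine phosphatase with 6 RIP peaks, went from 14.4, 12.3 and 12.5 CPM to 20.0, 39.2 and 42.9 CPM, again with KO replicate 1 the lowest (1.38 ± 0.27, adjusted p = 0.0401). Icosl, the ligand of the T cell costimulator ICOS, was low throughout, at 0.783, 0.891 and 0.757 CPM against 1.65, 2.95 and 3.79 CPM (1.78 ± 0.32, adjusted p = 0.0362). Its 2 RIP peaks were 61 bases each with scores of 0.00054 and 0.00065. Icosl was not alone in this. Over the 16 named called members, the peak with the lowest score of the gene was 60 (Igfbp4, Ifitm6) to 331 bases (Adamts6) wide. It was 61 bases in Oaf, Med12l and Gata2 too. These lowest scores ran from 1e-15 (Ptprj) to 0.00054 (Icosl).

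Dusp2, a phosphatase of MAP kinases, was at 3.89, 3.04 and 3.96 CPM in WT and 7.25, 8.62 and 8.54 CPM in the libraries labelled Ythdf2-KO. Here KO replicate 1 was close to its group (1.16 ± 0.17, edgeR adjusted p = 0.0273). Ptprn, a receptor-type phosphatase-like protein of secretory granules, had 12.1, 6.21 and 7.06 CPM against 17.5, 19.9 and 20.8 CPM, with WT replicate 1 the highest of its group (1.20 ± 0.25, adjusted p = 0.0455). The other rises among the 8 largest with a plain symbol were those of Tent5c, a poly(A) polymerase (log2 fold change 1.73), Gata2, a transcription factor (1.07), and Lipg, endothelial lipase (1.01). Smaller rises included Smad6, an inhibitor of BMP signalling, from 4.61 ± 0.183 to 8.26 ± 0.0605 CPM (SD, n = 3), and Fanca, of the Fanconi DNA repair complex, from 76.2 ± 7.21 to 123 ± 13.2 CPM; these 2 were named after their values were seen.

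Among the 22 members called lower, 7 fell at least 2-fold, again with no such share taken over all genes. Igfbp4, a secreted binder of insulin-like growth factors, was at 146, 212 and 207 CPM in WT and 53.2, 58.7 and 59.5 CPM in the libraries labelled Ythdf2-KO. All 3 of the latter were alike, and the adjusted p was the smallest of the members (log2 fold change -1.72 ± 0.15 SE, edgeR adjusted p = 0.0101). Rgcc, a cell cycle regulator, had 9.65, 20.6 and 22.4 CPM against 4.95, 4.71 and 4.43 CPM, with WT replicate 1 the lowest of its group (-1.90 ± 0.30, adjusted p = 0.0314). Ifitm6, of the interferon-induced transmembrane family, had 8.99, 12.6 and 11.9 CPM against 4.76, 2.78 and 2.70 CPM (-1.70 ± 0.26, adjusted p = 0.0293). Clec2d, a C-type lectin-like ligand of natural killer cell receptors, had 20.5, 30.5 and 27.6 CPM against 14.8, 13.5 and 10.9 CPM (means 26.2 and 13.1 CPM, adjusted p = 0.0355).

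The remaining falls among the 8 largest with a plain symbol were those of Oaf (log2 fold change -1.74), Med12l, a relative of a Mediator subunit (-1.03), Adamts6, a secreted metalloprotease (7.47 ± 0.771 to 3.74 ± 0.658 CPM), and Psd4, an exchange factor for ARF GTPases (-0.97). Adamts6 had 5 RIP peaks, all in its 3′ UTR, and Med12l shared 61 of its peak bases with another gene's exon. Of the 42 called members 38 were protein-coding, and 7 had a peak touching another gene's exon.

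**Figure D5:**
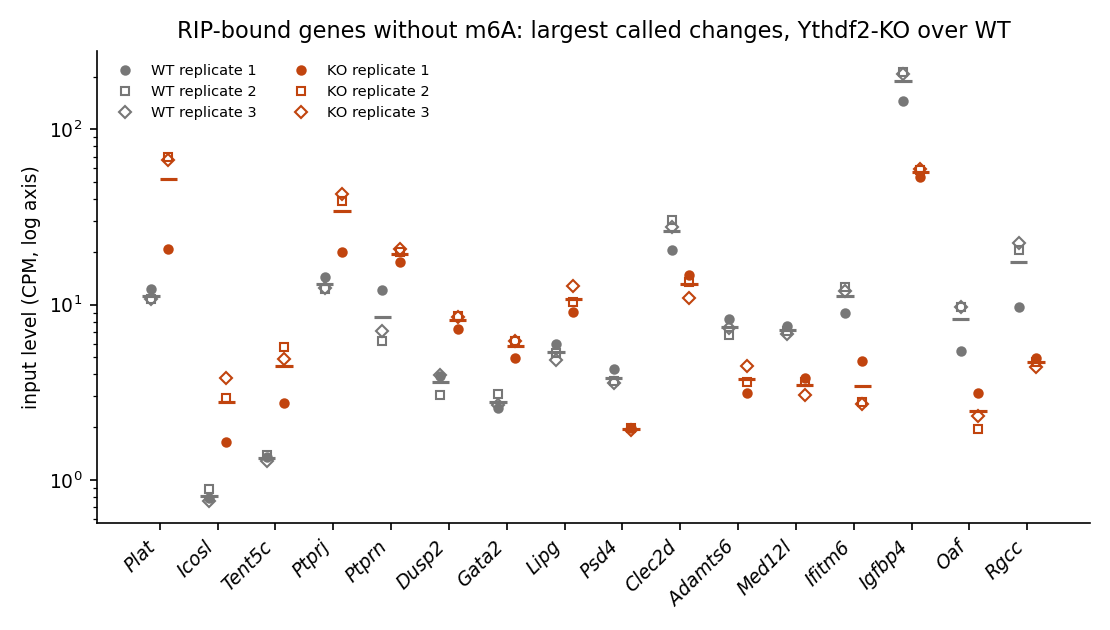
Points show the input level in CPM (vertical log axis) of each library for the 16 named members called higher or lower (horizontal axis, ordered by fold change), with group means as short lines; KO marks libraries labelled Ythdf2-KO. The groups do not overlap in any of the 16, which were chosen for the largest called changes, so this supports nothing. Over all genes tested, 33.8% did not overlap. KO replicate 1 is the KO library nearest to the WT mean in 14 of the 16, with Igfbp4 and Adamts6 the exceptions. That share was not taken over all genes.

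Of the members of the listed pathways, 1 passed the test. Snhg5, a small nucleolar RNA host gene, fell from 68.5, 62.6 and 69.2 CPM to 47.3, 38.6 and 36.9 CPM in the libraries labelled Ythdf2-KO (log2 fold change -0.71 ± 0.11 SE, edgeR adjusted p = 0.0298), and 39 of its 777 peak bases were shared with another gene's exon. Snhg1 stood at 183, 141 and 151 CPM in WT and 126, 88.5 and 86.9 CPM (adjusted p = 0.0625). Of the 21 host genes on the list, 8 were called lower and 0 higher. Oas2, an antiviral synthetase gene, was at 64.0, 36.9 and 38.7 CPM against 34.5, 15.9 and 17.9 CPM (edgeR adjusted p = 0.0998). Of the 32 interferon-stimulated genes, 8 were called lower and 1 higher. Over all genes tested, 1.54% were called lower and 2.99% higher. Both lists were chosen with results known, and neither was tested as a set. Without any one library other than KO replicate 1, at most 0.476% of all genes were called. Zfp672 was at 27.9, 32.1 and 31.6 CPM against 24.0, 15.7 and 12.8 CPM (adjusted p = 0.0731), and Zfp938 at 21.2 ± 0.881 against 13.6 ± 2.99 CPM (SD, n = 3; adjusted p = 0.0645), while Zfp335 and Zfp410 had log2 fold changes of 0.06 and 0.08. Zfp335 shared 602 of its 959 peak bases with exons of another gene. The collagen genes Col5a3 (67.4, 31.2 and 32.6 CPM against 47.6, 90.7 and 96.1 CPM) and Col11a1 overlapped between the groups, and Col6a4 stood at 1.65 ± 0.0643 against 0.954 ± 0.385 CPM. Sdha had 254, 269 and 249 CPM against 284, 310 and 311 CPM (adjusted p = 0.0930), and Mcm4, of the replicative helicase, 65.6, 97.7 and 95.9 CPM against 93.9, 128 and 122 CPM (adjusted p = 0.180). None of these genes, from Snhg1 to Mcm4, passed edgeR's test with all 6 libraries, but without KO replicate 1 each had an adjusted p under 0.05 except Zfp335 and Zfp410. With DESeq2 Oas2, Snhg1, Zfp672, Zfp938 and Sdha passed (adjusted p = 0.00873, 0.00227, 0.00458, 0.00384 and 0.0274), and with the replicate block Oas2 did (adjusted p = 0.0478). Cox6c (-0.06) and Psmb6 (0.06) differed little on the log2 scale, and Pan2 stood at 53.2 ± 6.25 and 52.2 ± 3.08 CPM (SD, n = 3; log2 fold change -0.02).

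The members named for the lowest scores or most RIP peaks were not among the calls. Fn1 stood at 2392, 1672 and 1883 CPM in the libraries labelled Ythdf2-KO (log2 fold change -0.34 ± 0.14 SE, edgeR adjusted p = 0.171), and KO replicate 1 overlapped the WT range. Htt was at 96.3, 93.2 and 93.2 CPM in WT and 94.4, 122 and 129 CPM in the libraries labelled Ythdf2-KO (0.29 ± 0.12, adjusted p = 0.154), again with KO replicate 1 inside the WT range. Of the other genes with most peaks, the log2 fold changes were -0.44 for Dync2h1, 0.28 for Lrrk2, -0.28 for Zfp521, -0.24 for Rfx3, 0.12 for Lpp, -0.03 for Rasa2 and 0.04 for Pdpk1, and none passed with all 6 libraries (Lrrk2 passed in DESeq2, adjusted p = 0.0226). Without KO replicate 1 the adjusted p was 0.00391 for Dync2h1, 0.00951 for Lrrk2, 0.0385 for Lpp, 0.0120 for Fn1, 0.00160 for Htt and 0.00152 for Pdia6, which was at 755, 959 and 939 CPM in the libraries labelled Ythdf2-KO (0.46 ± 0.11 and adjusted p = 0.0543 with all 6 libraries, DESeq2 adjusted p = 0.00231). Lamp1 did not pass in either fit, at 840, 897 and 890 CPM against the WT values above (-0.03 ± 0.07, adjusted p = 0.829).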

How the data were processed

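Members and gene lists were chosen with earlier results of these data known. The submitters' processing notes name HISAT2, HOMER, ChIPseeker and the build mm10, with no role given; of the counter, its strand setting and the peak caller the sources used here say nothing. The deposited table holds raw gene counts of the 6 input libraries and 0 columns of other samples. The 3 deposited peak lists give exonic blocks, a gene and a value the file headers call a score, read here as a p-value from its range; the highest was 0.003. The labels name no separate cultures, so the replicates, and the spread that the p-values rest on, may be technical.

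Peaks were set on GENCODE M21 (GRCm38, the assembly of mm10; 978 of 981 gene identifiers found, 948 with the same version), with bedtools 2.31.1 (at least 1 base). Counts were tested with edgeR 4.0.16 (TMM factors, filterByExpr, quasi-likelihood test, Benjamini-Hochberg adjustment over 18969 genes) in R 4.3.3; 822 of 981 members passed the filter. DESeq2 1.42.0 was an alternative. CPM are counts per TMM-scaled library size, ± is the SD over 3 libraries, and SE is the log2 fold change divided by the square root of F. On simulated counts for this comparison over 18969 genes, 200 of them changed, the test recovered 62% of 2-fold and 87% of 4-fold changes, and 9.15% of 164 calls were false. No simulated library was set apart from its group as KO replicate 1 was, so these rates need not hold for the real libraries. Replicate numbers were tested as a block. Named genes are, among plain symbols, the 8 members each with the lowest score, most peaks and highest WT level, the 8 largest called changes in each direction, those with the widest contact with an m6A peak of another gene, and members of the lists. Genes with a printed peak sequence follow the rules given beside them, set after values were seen. An item withheld from this account is not reported here.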

Additional observations from a re-analysis of the deposited data

How the results depend on the processing

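Settings changed the counts of calls. Of 160 refits of the 16 named called genes none reversed, 54 kept the call and 106 lost it. These genes were chosen for the largest called changes, and the refits reused the same libraries. A reversal was therefore unlikely from the start, and nothing follows for the direction of other genes. Without a filter on low counts, 70 genes were higher and 41 lower over all genes, and 1 and 2 among the members; 15 of the 16 lost the call. With DESeq2 the counts were 2244 and 1346 over all genes, and 87 and 81 among the members. With the replicate number as a block they were 45 and 26, and 0 and 2. The numbers did not pair the samples by the labels: same-numbered WT and KO libraries deviated together with correlations of 0.0494, 0.1149 and 0.0502, although each library correlated best with its own number, which is a hint from the data and not the design. Leaving out each library in turn gave 0 to 3782 higher and 0 to 3144 lower over all genes, and 0 to 156 and 0 to 186 among the members, the highest each time without KO replicate 1. The median member log2 fold change ran from -0.070 (without KO replicate 1) to -0.006. The number of member peaks was 7677 when only m6A peaks scored below their list's median counted, and 646 when only such RIP peaks did. The share of member peaks that met an m6A peak of another gene was 0.198% when a fraction of 0.5 of the peak had to be covered, and 1.53% on either strand; the share meeting a RIP peak of a gene with m6A was 16.7% at that fraction, a setting chosen after seeing the data, as were counting block sets once and setting aside genes with contact. With RIP peaks scored below the median, 44.7% of midpoints were in coding sequence and 53.2% in the 3′ UTR. GGACH alone gave 3.24 matches per kilobase. The median WT level was 1.99 per kilobase, and 7.29 to 7.65 CPM with 1 WT library left out.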

Other observations

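After the member sequences had been seen, runs of alternating A and C were counted in them. A run of 10 such bases occurred at 0.514 per kilobase of member peak (0.447 to 0.588) and at 0.182 per kilobase of the rest of the same transcripts, a ratio of 2.82, and in genes with m6A at 0.234 and 0.168 (ratio 1.39). Only 27 peaks held it (1.46% of 1844), 24 of them in 3′ UTRs. Of these, 13 were the overlapping last-exon peaks of the protocadherin gamma genes, which hold 130 of the 212 matches, so the density rests largely on 1 locus. Outside it the longest runs were in Lpp (46 bases), Nudt12 (42), Nqo2 (36) and Dnaaf5 (30).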
